A study of Mus musculus with 13 samples.

Results

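Oxidative phosphorylation is the last step of fuel oxidation in mitochondria. Complexes I to IV pass electrons from NADH and succinate to oxygen, and complexes I, III and IV pump protons across the inner membrane. Complex V, the ATP synthase, uses the returning protons to make ATP. The complexes, apart from complex II, mix nuclear-encoded subunits with others made from mitochondrial DNA, and hepatocytes, which burn fatty acids and pay for glucose synthesis in ATP, hold many mitochondria. SIRT1 is an NAD-dependent deacetylase known for acting on PGC-1alpha, a coactivator that raises the transcription of these nuclear genes. The genes examined here are the nuclear-encoded subunits of the 5 complexes, chosen by name from the array: every non-control probe whose gene name began with Nduf, Uqcr, Cox4 to Cox8 or Atp5, or was Sdha, Sdhb, Sdhc or Sdhd. The rule found 82 gene names of 27962 on the array, carried by 113 probes, and 25 of them had more than 1 probe.

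The samples were liver RNA of 13 male C57BL/6 mice, 1 mouse per array, all kept for 5 months on a fatty western-style diet. There were 5 TAKI and 3 TEKI mice, labelled as carrying the SIRT1 TA and TE knock-in alleles, and 5 WT mice with unaltered SIRT1. The series names T522, a threonine of SIRT1, as the phosphorylated residue under study, and the comparisons ask how the alleles at that residue bear on hepatic gene expression under the diet. Age at sampling, zygosity, the number of founder lines and any standard-diet group are not given in the sources used here, and both WT and knock-in mice carry the effects of the diet. Each animal was read on 1 Agilent 1-colour whole-mouse-genome array, and the background-subtracted intensities of the authors' scanner software were analysed as log2 levels minus the 75th percentile of the array, so a level of 0 is the 75th percentile and differences are on the log2 scale. Signal strength differs between probes for reasons other than RNA amount, so each gene is set only against itself.

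All 82 names passed the filter of being marked well above background on at least 3 arrays, and 80 did so on all 13. One of them, Cox4nb, shares only the letters: it is named for lying next to Cox4i1, belongs to no complex, and showed -0.03 for TAKI minus WT and 0.08 for TEKI minus WT. The other 81 split into 36 genes of complex I (7 core, 28 accessory and the assembly factor Ndufaf1), 4 of complex II, 7 of complex III, 18 of complex IV and 16 of complex V, where Ndufa4 is counted with complex IV, in which its protein sits. The 13 subunits encoded by mitochondrial DNA are not analysed here. Cox6a1 was the only member with a saturated spot, on 3 TAKI arrays and 1 TEKI array.

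The liver label was checked against its markers: 9 of 9 hepatocyte markers measured were well above background on every array. Sirt1 averaged 0.38 ± 0.23 in TAKI, 0.30 ± 0.25 in TEKI and 0.39 ± 0.12 in WT (SD), which checks the amount of transcript and not the allele. The share of probes well above background was 86.5% on TEKI replicate 1 and 59.8% to 72.5% on the other 12 arrays. The arrays lay on 5 slides: TAKI replicates 1 and 2 on one and 3 to 5 on another, all 3 TEKI arrays with WT replicate 5 on slide 3, WT replicates 1, 2 and 4 on slide 1 and WT replicate 3 alone. TAKI mice were on slides of their own, which leaves slide and TAKI genotype as effects that cannot be told apart, and for TEKI minus WT only 1 WT array shared the slide.

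The probes behind the central result are shown first. Cox6b2 encodes the isoform of the COX6B subunit of complex IV known from testis and sperm, and Cox6b1 the form found in most tissues; Cox4i2 is the lung- and hypoxia-associated isoform of the largest nuclear-encoded subunit of complex IV, and Cox4i1 its widespread partner. The sequences below are the array's 60-base probes as deposited, in their full length except for Cox6b2, of which the first 30 bases are printed. They are given to show which bases read each isoform. The longest run of bases shared was 6 between the full Cox6b2 and Cox6b1 probes and 5 between the Cox4i2 and Cox4i1 probes. The probes were compared only with each other, and their match to the transcript of the partner isoform was not tested. Coordinates are those of the file annotation, build mm7, where the span of a probe over more than 60 bases takes in an intron.
Cox6b2 probe, chr7:4326339-4326398, first 30 bases: ggaactttcccgggcaaaatatgaccttgc
Cox6b1 probe, chr7:27565779-27567275: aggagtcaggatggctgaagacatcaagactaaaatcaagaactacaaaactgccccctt
Cox4i2 probe, chr2:152495071-152496060: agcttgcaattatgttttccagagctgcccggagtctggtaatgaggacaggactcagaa
Cox4i1 probe, chr8:119308998-119309057: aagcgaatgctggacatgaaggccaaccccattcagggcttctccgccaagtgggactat

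Against WT, no member passed the threshold with either allele. By limma with Benjamini-Hochberg adjustment over the 20547 genes tested and a threshold of 0.05, 0 of 82 members were called for TAKI minus WT, where 2.85% of all genes were called, and the smallest adjusted p of a member was 0.219. For TEKI minus WT 0 of 82 were called, where 0.00487% of all genes (1 gene) were called, with a smallest adjusted p of 0.392. At an unadjusted p under 0.05 there were 3 members for TAKI minus WT (1 higher, 2 lower), or 3.66%, against 14.7% of all genes, and 4 for TEKI minus WT, all higher, or 4.88%, against 11.6% of all genes in either direction and 10.1% higher. The arrays of the 2 groups did not overlap for 0 members in TAKI minus WT, against 7.5% of all genes, and for 3 in TEKI minus WT, all higher, against 3.91% in either direction and 2.64% higher. The members that came nearest were Sdhc, Ndufc1 and Cox6b2 in TAKI and Cox6b2, Cox4i2, Ndufs8 and Ndufa10 in TEKI.

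Between the alleles, Cox6b2 was the 1 member of 82 past the threshold for TEKI minus TAKI, where 3.46% of all genes were called, 2.48% as higher. Its level was -1.03, -1.22 and -1.14 on the TEKI arrays, -2.56, -1.97, -1.87, -1.93 and -1.76 on the TAKI arrays and -1.68, -1.67, -1.90, -1.76 and -1.47 on the WT arrays. Every TEKI array lay above every TAKI and every WT array, while TAKI and WT overlapped. The highest of the other arrays, at -1.47, was WT replicate 5, the only WT array on slide 3 with the TEKI arrays. TEKI and TAKI shared no slide, so slide and allele cannot be told apart in that comparison. Cox6b2 was 1.85-fold higher in TEKI than in TAKI (log2 difference 0.89 ± 0.17 (SE, adjusted p = 0.0112), 95% interval 0.52 to 1.25). For TEKI minus WT it differed by 0.56 ± 0.17 (SE, adjusted p = 0.392) and for TAKI minus WT by -0.32 ± 0.14 (SE, adjusted p = 0.326), neither past the threshold. The TEKI minus WT difference was 0.14 with median scaling and 0.34 within slide 3, and the TAKI minus WT difference was -0.19 without TAKI replicate 1. Over the whole family, the TEKI and TAKI arrays did not overlap for 10 members that were higher in TEKI and 1 that was lower, or 13.4%, against 8.29% of all genes (5.55% higher and 2.74% lower). The partner of Cox6b2, Cox6b1, averaged 2.73 ± 0.07 in TEKI, 2.73 ± 0.15 in TAKI and 2.65 ± 0.11 in WT (SD) and differed by 0.00 for TEKI minus TAKI, with an interval of -0.23 to 0.24.

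The Cox6b2 call ended when each array was scaled to its median (difference 0.61, adjusted p = 0.289) and when WT was left out of the model (adjusted p = 0.0591). Leaving out 1 array at a time gave differences of 0.75 to 0.95 and adjusted p of 0.00751 to 0.0499. Among 6 testis markers, 5 were tested. Their summed level was -0.63 to -0.27 in TEKI, -0.56 to 0.15 in TAKI and -0.93 to -0.74 in WT (log2). The median TEKI minus TAKI difference of these markers was -0.13. Only Tnp1, a transition protein of sperm chromatin, was called, 1.09 higher in TAKI than in WT (adjusted p = 0.0438). That was 1 of 5, against 2.85% of all genes. Odf1, of the sperm tail, was well above background on 3 TAKI arrays and on no TEKI or WT array. Pancreatic acinar markers, 7 of 8 tested, had a summed level of 0.57 to 0.91 in TEKI, 0.10 to 0.55 in TAKI and -0.25 to 0.42 in WT. Their median TEKI minus TAKI difference was 0.68, and Zg16, a zymogen granule protein, was called (2.74, adjusted p = 0.00786), 1 of 7 against 3.46% of all genes. For TAKI minus WT 1 of the 7 was called, as lower (adjusted p = 0.0306), against 2.85% of all genes. Adipocyte markers, 6 of 8 tested, had a median TEKI minus TAKI difference of 0.73 with none called, and a summed level of 7.19 to 8.40 in TEKI, 7.15 to 8.04 in TAKI and 7.39 to 8.63 in WT. Skeletal muscle markers, given with the muscle-type isoforms, also had calls in this comparison. The part of transcripts of other tissues in the Cox6b2 difference was not tested.

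**Figure D1:**
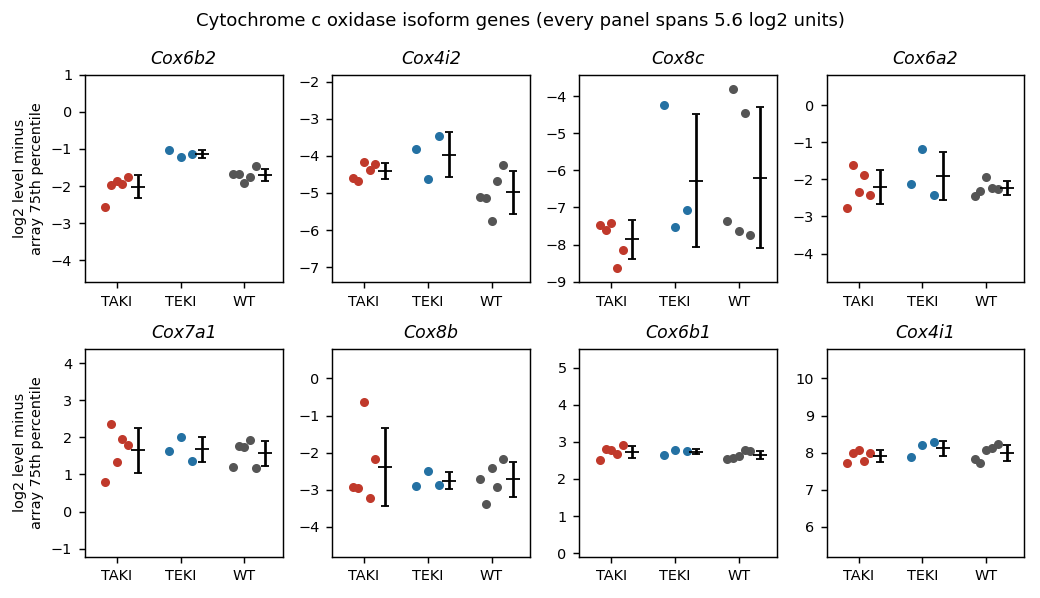
Levels of 6 tissue-restricted isoforms of complex IV and 2 widespread partners (Cox6b1, Cox4i1) on each array (points; vertical axis log2 level minus the array's 75th percentile), with the mean and SD of the group beside them. Every TEKI point of Cox6b2 lies above all TAKI and WT points, while in the other 7 panels the groups overlap.

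The differences of the members as a whole were small and their intervals narrow. The median member differed by -0.06 (log2) for TAKI minus WT, against 0.00 over all genes tested, by 0.08 for TEKI minus WT, against 0.07 over all genes, and by 0.13 for TEKI minus TAKI, against 0.06. The median 95% interval reached 0.23 to either side for TAKI minus WT and 0.27 for TEKI minus WT. The whole interval lay within 0.5 of 0 for 75 of 82 members in TAKI and for 72 of 82 in TEKI, against 8791 and 7873 of 20547 genes. These shares are not matched for signal: 68 of 82 members were at a level of 4 or more, against 1871 of 20547 genes. At that level the median SD within genotypes was 0.15 over the members and 0.17 over all genes. The 95% intervals leave out the choice of scaling, and with median scaling the median member was at -0.21 and -0.35. The difference was smaller than the SD of the 5 WT arrays for 72 of 82 members in TAKI and for 71 of 82 in TEKI.

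By sign, 57 of 82 members were lower in TAKI than in WT, against 49.7% of all genes, but the count was 78 with median scaling, 40 with quantile normalization and 39 once the level by place on the array was removed. For TEKI minus WT 61 of 82 were higher, against 62.4% of all genes, while with median scaling 80 of 82 were lower. For TEKI minus TAKI 71 of 82 were higher, against 60.6% of all genes, and 75 were lower with median scaling. Most members, 68 of 82, were at a level of 4 or more, where the counts over all genes were others. In array rows 1 to 266, 779 of 941 such genes were lower for TAKI minus WT, and in rows 267 to 532, 561 of 930. Higher were 566 of 941 and 478 of 930 for TEKI minus WT, and 795 of 941 and 573 of 930 for TEKI minus TAKI. Median scaling shifts every gene of an array alike, and with it the median of all genes stood at -0.15, -0.36 and -0.21 in the 3 comparisons. Among the arrays, TEKI replicate 1 had the highest median signal, 144.7, with a 75th percentile of 844.3. The next highest median was 104.3, on TAKI replicate 4, with a 75th percentile of 1173.8. Median scaling without TEKI replicate 1 was not run, so the part of that array in its TEKI results was not tested. Relative to the median of all genes, the members stood at -0.06, 0.0051 and 0.06 as reported, at 0.0084, 0.04 and 0.04 after quantile normalization, and at 0.07, -0.04 and -0.09 after normexp background correction, so this relative position changed sign with that processing too. The normexp setting started from spot means that were not detrended, kept outlier spots and added an offset of 50. Background correction was therefore not its only change.

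**Figure D2:**
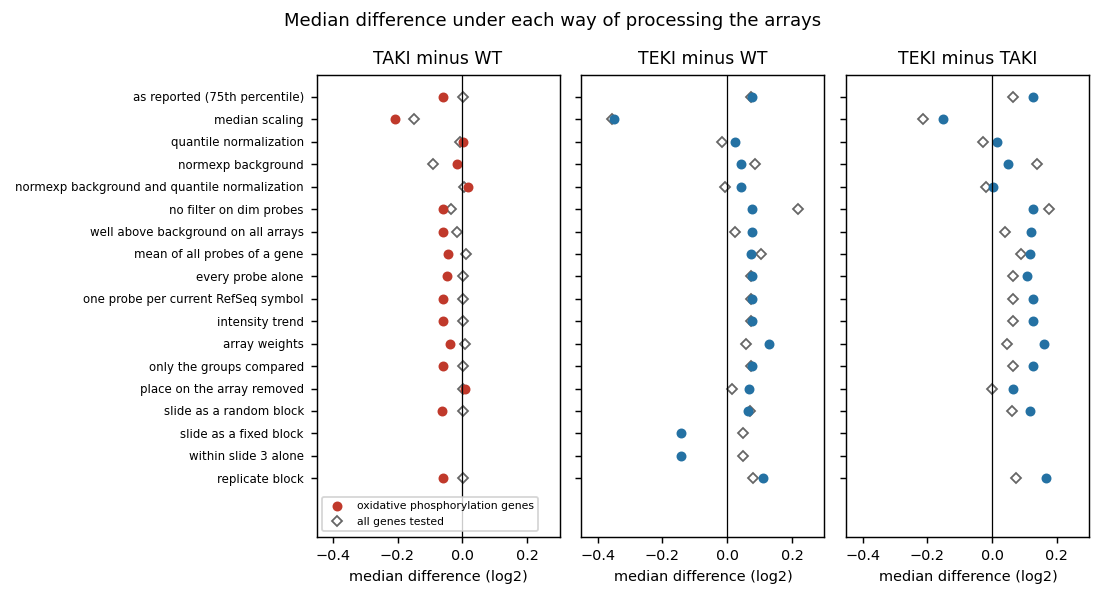
Median log2 difference over the members (filled circles) and over all genes tested (open diamonds) under each way of processing the arrays, one per line, for TAKI against WT, TEKI against WT and TEKI against TAKI. Members and all genes shift together to the left with median scaling, and for TEKI minus WT the members cross to -0.14 when slide is a fixed block or slide 3 is used alone.

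**Figure D3:**
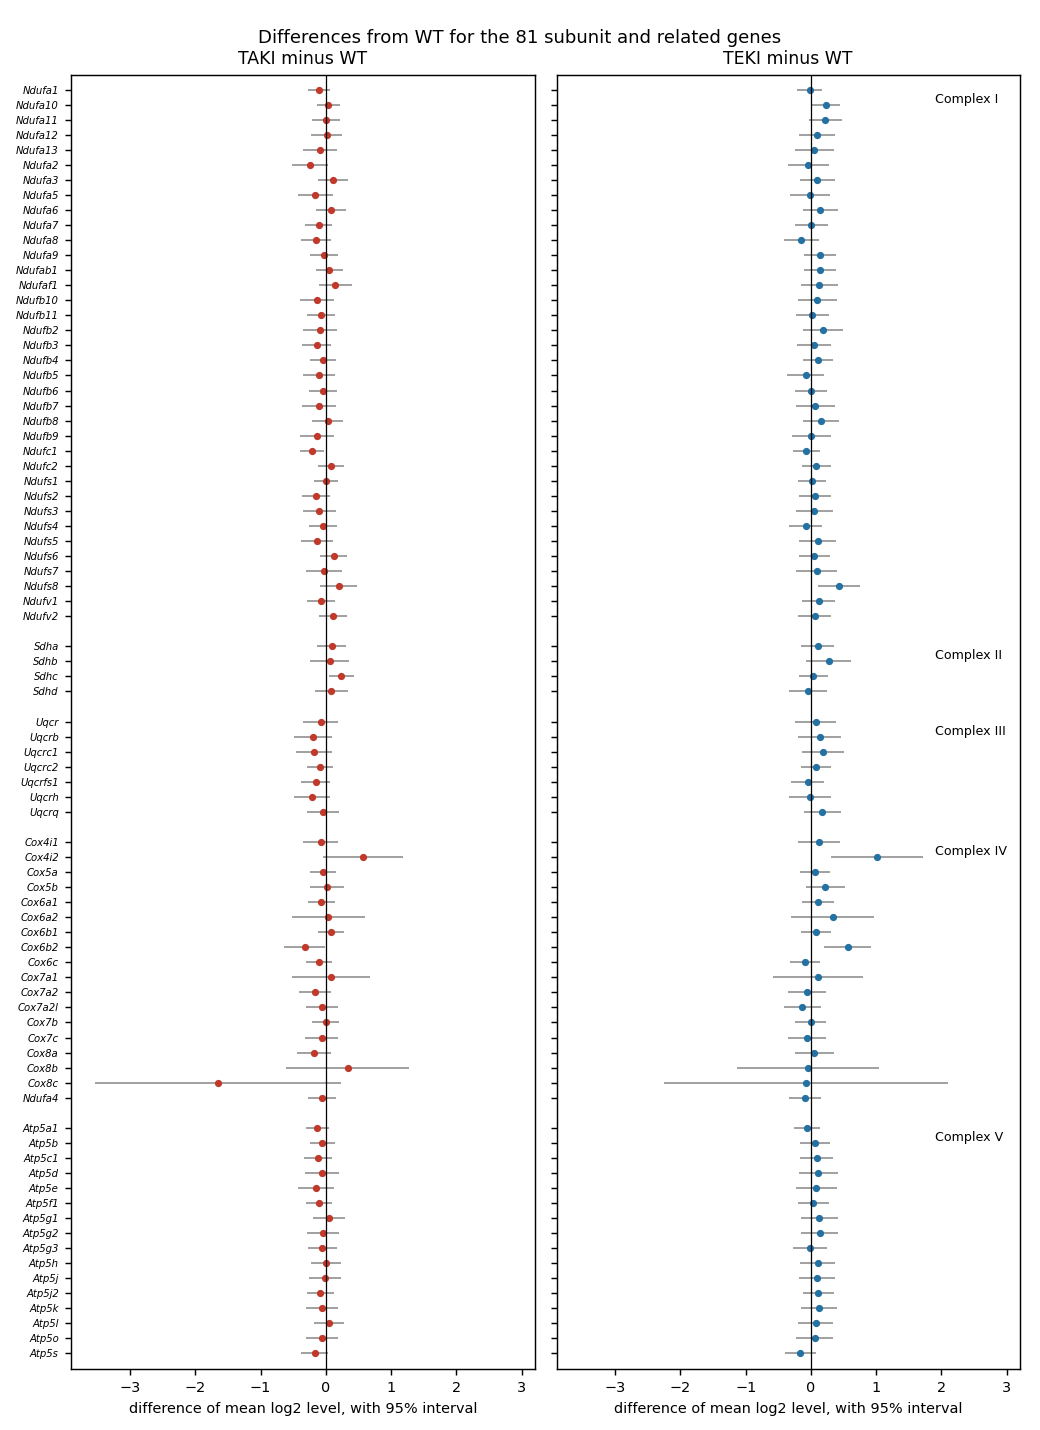
Difference of the mean log2 level from WT for the 81 members that belong to a complex (points), with 95% intervals from limma (lines), for TAKI minus WT on the left and TEKI minus WT on the right. The whole interval lies within 0.5 of 0 for most genes, and the widest intervals belong to 5 isoforms of complex IV best known from other tissues, Cox8c, Cox8b, Cox4i2, Cox7a1 and Cox6a2.

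The wild-type mice themselves covered more ground than the genotype means did. Taking each gene against its own WT mean, the median member stood at -0.10, -0.01, 0.00, -0.19 and -0.02 on the TAKI arrays, -0.03, 0.09 and 0.16 on the TEKI arrays, and -0.15, -0.18, 0.04, 0.08 and 0.21 on the WT arrays. The lowest TAKI array and WT replicate 2 were alike, and the highest array of all was WT replicate 5, which lay on the slide of the TEKI arrays. The complexes moved together from array to array: on 10 of 13 arrays the medians of complexes I, III, IV and V lay on the same side of the WT mean, and adding complex II left 6. Within slide 3 alone, where WT replicate 5 is the only control, the median member was at -0.14 for TEKI minus WT, against 0.05 for all genes, so the sign of the TEKI difference turned on which WT arrays were used.

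**Figure D4:**
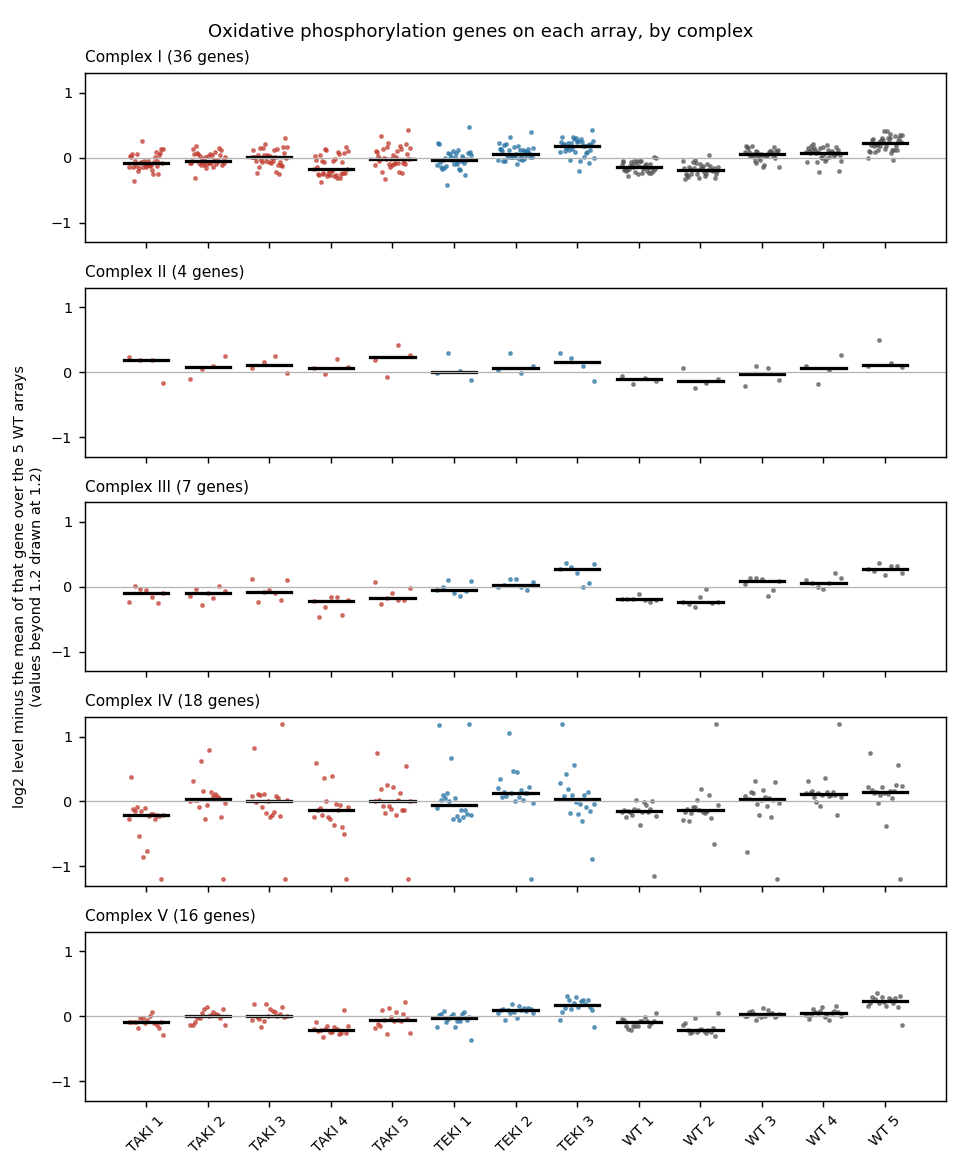
Log2 level of each gene minus its mean over the 5 WT arrays (points), with the median of the complex on the array (bars), for complexes I to V from top to bottom and TAKI, TEKI and WT arrays from left to right. For complexes I, III and V the bars of the 5 WT arrays span about as much as those of all 3 genotypes and shift up and down together, while every TAKI bar of complex II lies above 0.

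Complex I takes electrons from NADH. Of its 36 genes 24 were lower in TAKI than in WT (median -0.06), a count of 18 after quantile normalization and 35 with median scaling, and 29 were higher in TEKI (median 0.07), although all 36 were lower there with median scaling. Ndufc1, a small accessory subunit of the membrane arm, read 5.42, 5.63, 5.44, 5.35 and 5.44 on the TAKI arrays, 5.48, 5.63 and 5.68 on the TEKI arrays, and 5.56, 5.57, 5.72, 5.75 and 5.73 on the WT arrays. All but TAKI replicate 2 lay below every WT array. It differed by -0.21 ± 0.08 (SE, adjusted p = 0.246) for TAKI minus WT and by -0.07 for TEKI minus WT. Its other probe gave -0.08 and 0.07 for these comparisons. Ndufa2, an accessory subunit of the matrix arm, read 5.95, 6.00, 6.07, 6.04 and 6.29 on the TAKI arrays, 6.13, 6.27 and 6.42 on the TEKI arrays, and 6.11, 6.02, 6.34, 6.48 and 6.60 on the WT arrays. The TAKI arrays lay within the range of the WT arrays or below it, with a difference of -0.24 ± 0.12 (SE, adjusted p = 0.413).

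Ndufs8 is a core subunit that holds 2 of the iron-sulfur clusters of the electron path, and it had the largest SD within genotypes in complex I (0.19). It read 2.83, 2.66, 3.01, 2.86 and 3.13 on the TAKI arrays, 3.18, 3.09 and 3.13 on the TEKI arrays, and 2.72, 2.46, 2.79, 2.50 and 3.06 on the WT arrays. The TEKI arrays lay above all WT arrays by a small margin, and the TAKI arrays ranged over both. The highest WT array, replicate 5 at 3.06, was the only WT array on the slide of the TEKI arrays. The difference was 0.43 ± 0.15 (SE, adjusted p = 0.392) for TEKI minus WT, with an interval of 0.11 to 0.75, and 0.19 for TAKI minus WT. With median scaling the TEKI difference was 0.00. The accessory subunit Ndufa10 read 4.30, 4.21, 4.40, 4.31 and 4.39 on the TAKI arrays, 4.51, 4.51 and 4.53 on the TEKI arrays, and 4.23, 4.13, 4.46, 4.21 and 4.39 on the WT arrays. Its TEKI arrays, too, were above every WT array, with a difference of 0.23 ± 0.10 (SE, adjusted p = 0.411), which was -0.20 with median scaling. Of 7 core genes, all were higher in TEKI than in WT as reported, from 0.02 for Ndufs1 to 0.43 for Ndufs8, and none was called.

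Complex II, succinate dehydrogenase, links the tricarboxylic acid cycle to the chain and is entirely nuclear-encoded. All 4 genes were higher in TAKI than in WT (median 0.09), as they were after quantile normalization and after removing place on the array, while 3 of 4 were lower with median scaling. Sdhc, a membrane anchor, read 4.78, 4.69, 4.85, 4.80 and 5.02 on the TAKI arrays, 4.61, 4.59 and 4.69 on the TEKI arrays, and 4.51, 4.43, 4.67, 4.63 and 4.73 on the WT arrays. The lowest TAKI array fell between the 2 highest WT arrays, and the TEKI arrays lay within the WT range. Sdhc differed by 0.23 ± 0.09 (SE, adjusted p = 0.219) for TAKI minus WT, with an interval of 0.04 to 0.42, the smallest p of any member in that comparison. It passed the threshold in 2 of the alternative settings, with array weights (0.30, adjusted p = 0.0332) and with normexp background and quantile normalization (0.29, adjusted p = 0.0414). With median scaling its difference was 0.08 (adjusted p = 0.888). Sdhc was also the only member whose TEKI arrays all lay below all TAKI arrays (-0.20 for TEKI minus TAKI, adjusted p = 0.484).

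Sdhb, the iron-sulfur subunit, read 5.71, 5.58, 5.68, 5.49 and 5.46 on the TAKI arrays, 5.83, 5.82 and 5.75 on the TEKI arrays, and 5.35, 5.29, 5.63, 5.34 and 6.03 on the WT arrays. One WT array, replicate 5, was higher than every other array of the study, and the TEKI arrays were the next highest. The difference was 0.27 ± 0.16 (SE, adjusted p = 0.512) for TEKI minus WT but -0.23 within slide 3. Sdha, the flavoprotein that oxidises succinate, read 4.43, 4.08, 4.26, 4.26 and 4.39 on the TAKI arrays, 4.17, 4.22 and 4.48 on the TEKI arrays, and 4.14, 4.26, 3.98, 4.28 and 4.29 on the WT arrays. The groups overlapped, and it differed by 0.09 for TAKI minus WT and 0.10 for TEKI minus WT, both of which were negative with median scaling. The remaining anchor Sdhd differed by 0.08 and -0.05.

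Complex III passes electrons from ubiquinol to cytochrome c. All 7 genes were lower in TAKI than in WT (median -0.16), as with median scaling, and 6 of 7 were after quantile normalization, and 4 of 7 after normexp with quantile normalization. None was called. Uqcrh, the hinge protein, read 7.75, 8.01, 7.78, 7.56 and 7.80 on the TAKI arrays, 7.92, 7.94 and 8.05 on the TEKI arrays, and 7.75, 7.75, 7.94, 8.20 and 8.31 on the WT arrays. The TAKI arrays lay inside or below the span of WT, with a difference of -0.21 ± 0.13 (SE, adjusted p = 0.519). Uqcrfs1, the Rieske iron-sulfur protein, read 5.93, 5.91, 5.99, 5.93 and 5.88 on the TAKI arrays, 5.94, 6.09 and 6.08 on the TEKI arrays, and 5.88, 6.05, 5.95, 6.15 and 6.40 on the WT arrays. Its TAKI arrays were the tightest of the members named (SD 0.04), at the low end of the WT range, and the difference was -0.16 ± 0.10 (SE, adjusted p = 0.54), which was -0.08 without WT replicate 5 and -0.05 with place on the array removed.

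Uqcrc1, a core protein, read 6.41, 6.43 and 6.62 on the TEKI arrays, 6.27, 6.02, 6.22, 5.99 and 6.14 on the TAKI arrays, and 6.11, 5.99, 6.44, 6.30 and 6.67 on the WT arrays. All TEKI arrays lay above all TAKI arrays, with WT spread across both. It differed by 0.36 ± 0.15 (SE, adjusted p = 0.339) for TEKI minus TAKI and, beside Cox6b2, was the only member with an unadjusted p under 0.05 there, or 2 of 82 against 12.1% of all genes. For TEKI minus WT the difference was 0.18, and -0.19 within slide 3. Uqcrq, a small subunit next to cytochrome b, read 8.43, 8.46, 8.62, 8.33 and 8.51 on the TAKI arrays, 8.61, 8.60 and 8.88 on the TEKI arrays, and 8.32, 8.28, 8.61, 8.66 and 8.74 on the WT arrays. TEKI replicate 3 was its highest array, and the TEKI minus WT difference was 0.17 ± 0.13 (SE, adjusted p = 0.632). Uqcrb, which had the largest SD within genotypes in complex III (0.20), read 5.45, 5.41, 5.21, 4.98 and 5.18 on the TAKI arrays, 5.43, 5.48 and 5.81 on the TEKI arrays, and 5.25, 5.19, 5.58, 5.50 and 5.69 on the WT arrays. It differed by -0.20 for TAKI minus WT and by 0.13 for TEKI minus WT, with overlap in both.

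Complex IV, cytochrome c oxidase, reduces oxygen. Of its 18 genes 12 were lower in TAKI than in WT (median -0.06), against 9 after quantile normalization and 6 with place on the array removed, and 10 were higher in TEKI, against 2 with median scaling. Its widespread subunits differed little. Cox4i1 ranged from 7.72 to 8.09 in TAKI, 7.89 to 8.28 in TEKI and 7.72 to 8.22 in WT. Cox6a1 averaged 9.25 ± 0.11 in TAKI, 9.43 ± 0.07 in TEKI and 9.32 ± 0.16 in WT, and Cox7a2 6.16 ± 0.19 in TAKI, 6.27 ± 0.15 in TEKI and 6.33 ± 0.15 in WT (SD). Cox7b differed by 0.00 for TAKI minus WT and by 0.00 for TEKI minus WT. Cox8a differed by -0.18 and 0.05, and Ndufa4 by -0.06 and -0.09. None of these was called in any comparison.

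The isoforms best known from other tissues spread more. Cox4i2 read -4.61, -4.67, -4.16, -4.39 and -4.23 on the TAKI arrays, -3.80, -4.64 and -3.47 on the TEKI arrays, and -5.12, -5.14, -5.76, -4.67 and -4.24 on the WT arrays. It was well above background on 4 of 5 WT arrays and on all TAKI and TEKI arrays. WT replicate 5, the highest WT array, lay above TEKI replicate 2 and above 3 of the 5 TAKI arrays. Cox4i2 was 2.02-fold higher in TEKI than in WT by its means (1.02 ± 0.32 (SE, adjusted p = 0.392), interval 0.31 to 1.72) and differed by 0.57 ± 0.28 (SE, adjusted p = 0.383) for TAKI minus WT, a difference that was -0.04 after normexp background correction. The TEKI difference was 0.21 after quantile normalization, with or without normexp, and 0.27 within slide 3, and without 1 array at a time it ranged from 0.76 to 1.35.

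Cox8c, an isoform known from testis, was marked well above background on 0 of 5 TAKI, 1 of 3 TEKI and 2 of 5 WT arrays. It read -7.47, -7.60, -7.41, -8.63 and -8.15 on the TAKI arrays, -4.23, -7.52 and -7.08 on the TEKI arrays, and -7.35, -3.81, -7.63, -4.45 and -7.75 on the WT arrays. The values fell into a low cluster and 3 high arrays, TEKI replicate 1 and WT replicates 2 and 4, and no fold is given, because the means lay below the dimmest signals marked as above background. The muscle-type isoforms were measured on every array. Cox6a2 ranged from -2.77 to -1.62 in TAKI, -2.42 to -1.19 in TEKI and -2.45 to -1.93 in WT. Cox7a1 ranged from 0.80 to 2.36 in TAKI, 1.37 to 2.02 in TEKI and 1.18 to 1.92 in WT, and Cox8b from -3.21 to -0.63 in TAKI, -2.91 to -2.49 in TEKI and -3.37 to -2.16 in WT. Their differences from WT lay between -0.04 and 0.34, with adjusted p of 0.697 or more.

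The array also carries markers of skeletal muscle, the main tissue of these isoforms. All 12 were on the array and 9 were tested, and their summed level was 0.55 to 1.45 in TEKI, -0.51 to 0.05 in TAKI and -0.27 to 1.22 in WT. Myh2, a fast myosin heavy chain, was 3.37 higher in TEKI than in TAKI (adjusted p = 0.0196), and Tnnc2, troponin C of fast fibres, 2.05 higher (adjusted p = 0.00877). These were 2 of 9 markers, against 3.46% of all genes, and the other 7 tested, such as Acta1 and Ckm, were not called in that comparison. Tnnc2 was the 1 muscle marker of 9 called for TAKI minus WT, with a difference of -1.40 (adjusted p = 0.0383), against 2.85% of all genes. Of the 12, the number on no array of the genotype well above background was 2 in TEKI, 2 in TAKI and 3 in WT. For TEKI minus TAKI, Cox6a2 differed by 0.29, Cox7a1 by 0.02 and Cox8b by -0.38, none of them called. The part of the muscle transcripts in these levels was not tested, and in bulk RNA fewer cells of a type and less RNA per cell cannot be told apart.

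Complex V makes ATP. Of its 16 genes 13 were lower in TAKI than in WT (median -0.06), against 7 after quantile normalization and 16 with median scaling, and 13 were higher in TEKI (median 0.09), but none with median scaling or within slide 3. Between the alleles, all 16 were higher in TEKI than in TAKI (median 0.11), from 0.01 to 0.23, but only 5 were after normexp with quantile normalization and none with median scaling. No gene of the complex was called. Atp5a1, the alpha subunit of the catalytic head, read 7.78, 7.73, 7.82, 7.67 and 7.68 on the TAKI arrays, 7.70, 7.91 and 7.80 on the TEKI arrays, and 7.83, 7.74, 7.88, 7.88 and 8.02 on the WT arrays. The TAKI arrays overlapped the lower WT arrays, and the difference was -0.13 ± 0.08 (SE, adjusted p = 0.507). Its other probe gave 0.11 for the same comparison.

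Atp5g2, one of the genes for the ring subunit c, read 5.95, 6.19, 6.05, 5.81 and 6.04 on the TAKI arrays, 6.08, 6.12 and 6.35 on the TEKI arrays, and 5.91, 5.85, 6.04, 6.20 and 6.27 on the WT arrays. The groups overlapped, with 0.13 ± 0.13 (SE, adjusted p = 0.728) for TEKI minus WT, which was -0.08 within slide 3. Atp5e, the epsilon subunit of the central stalk, had the largest SD within genotypes in the complex (0.19). It read 7.37, 7.52, 7.38, 7.22 and 7.49 on the TAKI arrays, 7.45, 7.64 and 7.79 on the TEKI arrays, and 7.33, 7.31, 7.58, 7.60 and 7.91 on the WT arrays. The WT arrays alone covered the span of the others, apart from TAKI replicate 4 below it. Atp5s, an assembly-related factor now named Dmac2l, read 1.25, 1.40, 1.54, 1.38 and 1.28 on the TAKI arrays, 1.18, 1.58 and 1.37 on the TEKI arrays, and 1.59, 1.59, 1.57, 1.55 and 1.41 on the WT arrays. WT replicate 5 lay among the knock-in arrays, while the other WT arrays lay above all TAKI arrays. It differed by -0.17 ± 0.09 (SE, adjusted p = 0.457) for TAKI minus WT and -0.16 ± 0.11 (SE, adjusted p = 0.573) for TEKI minus WT, but its second probe gave 0.31 for TAKI minus WT.

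Such small differences varied with the place of the probe on the array. Among all 1871 genes at a level of 4 or more, the median TAKI minus WT difference was -0.10 for the 941 with probes in rows 1 to 266 and -0.03 for the 930 in rows 267 to 532. The members followed the same split: 36 of 45 at that level in rows 1 to 266 were below 0 (median -0.08), and 15 of 23 in rows 267 to 532 (median -0.03). Of all genes at that level, 779 of 941 and 561 of 930 were below 0. All 7 complex III probes lay in rows 6 to 262. With place on the array removed, 6 of these 7 genes were below 0 for TAKI minus WT (median -0.05). Of 21 members with more than 1 probe above background, 9 had all their probes on the same side of 0 for TAKI minus WT, and 16 for TEKI minus WT. Once each array's shift by row and level was removed, the median member was 0.01 in TAKI and 0.07 in TEKI, each against WT, and 0.06 between TEKI and TAKI. Among 14 members with probes in both ranges of rows, the probes in rows 267 to 532 gave the higher TAKI minus WT value for 9 (median gap 0.07). No test of this split was made, and the cause of the shift was not tested.

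**Figure D5:**
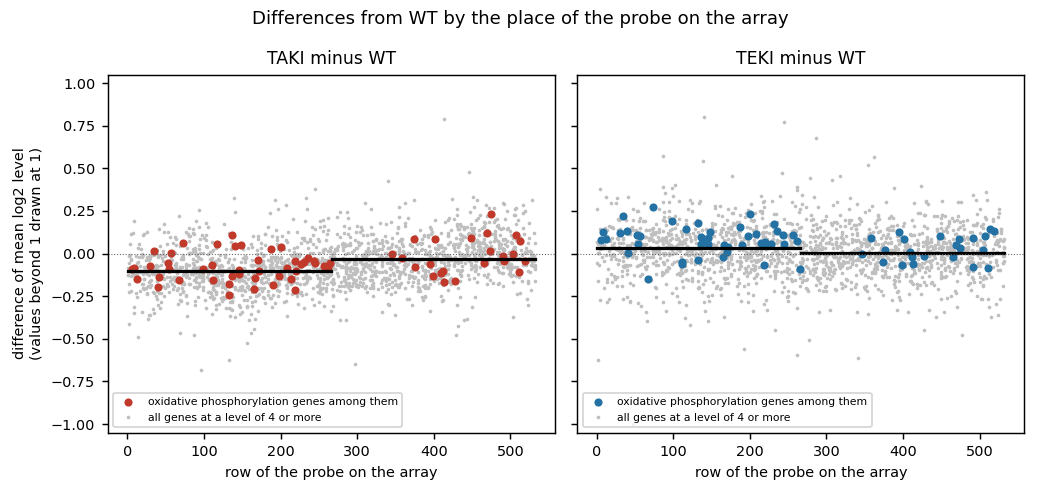
Difference from WT against the row of the probe on the array, for genes at a mean log2 level of 4 or more: all such genes (small grey points) and the members among them (large points), with the median of all genes in rows 1 to 266 and 267 to 532 (bars), for TAKI minus WT on the left and TEKI minus WT on the right. The TAKI medians are -0.10 and -0.03 and those of TEKI 0.03 and 0.00.

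The members were steadier from mouse to mouse than the average gene. The median SD within genotypes was 0.15 over the members and 0.30 over all genes tested, and at a level of 4 or more it was 0.15 over 68 members and 0.17 over 1871 genes. The largest SDs belonged to isoforms best known from other tissues, 1.48 for Cox8c, 0.73 for Cox8b, 0.47 for Cox4i2, 0.46 for Cox7a1 and 0.42 for Cox6a2.

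The genes around the complexes gave no call either, in any of the 3 comparisons. Among 21 regulators of mitochondrial gene expression, Ppargc1a, which encodes PGC-1alpha, differed by -0.16 (adjusted p = 0.65) for TAKI minus WT and -0.07 for TEKI minus WT, and Tfam, the packaging factor of mitochondrial DNA, by -0.23 and 0.30. The smallest p among regulators belonged to Twnk, the mitochondrial DNA helicase, for TAKI minus WT (-0.27, adjusted p = 0.346), and to Pprc1, a PGC-1-related coactivator, for TEKI minus WT (-0.24, adjusted p = 0.488). Of 36 assembly factors Cox14 came nearest for TAKI minus WT (-0.24, adjusted p = 0.298) and Cox15, of heme A synthesis, for TEKI minus WT (-0.36, adjusted p = 0.392). Among 11 mobile carriers and supercomplex factors tested these were Coq2, an enzyme of ubiquinone synthesis (-0.12, adjusted p = 0.534), and Cyc1, cytochrome c1 of complex III, which the name rule did not take in (0.31, adjusted p = 0.42).

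Of 14 tricarboxylic acid cycle genes, Ogdh, of the oxoglutarate dehydrogenase complex, was nearest for TAKI minus WT (-0.22, adjusted p = 0.348) and Suclg1, of succinyl-CoA ligase, for TEKI minus WT (0.21, adjusted p = 0.511). Among 8 genes of ATP and proton transport tested, the ADP/ATP carriers Slc25a4 and Slc25a5 were nearest (0.27 for TAKI minus WT, adjusted p = 0.456, and 0.16 for TEKI minus WT, adjusted p = 0.565). The 10 tested subunits and assembly factors that the files list under another name were led by Ndufaf6 for TAKI minus WT (0.16, adjusted p = 0.681) and Atp5mpl for TEKI minus WT (0.13, adjusted p = 0.647). List medians lay between -0.07 and 0.13 for the comparisons with WT.

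Promoters of the members are described next, and any link between them and the shifts from array to array was not tested. NRF1, GABP and YY1 are transcription factors known to bind promoters of oxidative phosphorylation genes. In RefSeq windows of 300 bases that span the gene start (GRCm38.p6), found for 67 of the 81 members, both strands were searched for an NRF1-type motif of 10 letters, 1 of them free, for CCGGAAG (GABP/ETS) and AAGATGGC (YY1). A gene was counted if any of its windows held the letters. The NRF1-type letters were found for 25.4% of members, against 5.19% of all 27025 genes. The GABP/ETS letters were found for 25.4% against 9.93%, and the YY1 letters for 14.9% against 3.19%. At least 1 of the 3 was in 56.7% of members, against 16.4% of all, and the median GC content was 58.3% against 52.8%. The YY1 letters were found for 7 of 32 complex I genes and 3 of 15 of complex V. They were found for none of the 3, 4 and 13 genes of complexes II, III and IV, which are few. A match is a string of letters and not a shown site.

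Windows of 3 members with a match and of Cox6b2, which has none, follow with the matches in capitals. Uqcrc1 holds the NRF1-type letters at 2 places, Sdhb the GABP/ETS letters and Ndufc1 the YY1 letters.
Uqcrc1, chr9:108936398-108936697, + strand: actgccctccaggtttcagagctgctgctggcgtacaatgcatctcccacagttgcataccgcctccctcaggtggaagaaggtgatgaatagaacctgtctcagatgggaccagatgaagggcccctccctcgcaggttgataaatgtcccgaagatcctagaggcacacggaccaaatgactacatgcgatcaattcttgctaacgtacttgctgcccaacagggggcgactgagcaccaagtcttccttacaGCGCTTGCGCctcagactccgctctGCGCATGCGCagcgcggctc
Sdhb, chr4:140961021-140961320, + strand: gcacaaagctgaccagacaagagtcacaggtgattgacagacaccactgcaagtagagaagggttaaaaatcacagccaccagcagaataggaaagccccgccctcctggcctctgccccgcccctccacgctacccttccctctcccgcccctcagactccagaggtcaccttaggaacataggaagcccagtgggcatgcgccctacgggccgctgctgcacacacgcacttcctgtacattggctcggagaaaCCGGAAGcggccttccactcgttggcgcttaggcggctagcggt
Ndufc1, chr3:51408906-51409205, - strand: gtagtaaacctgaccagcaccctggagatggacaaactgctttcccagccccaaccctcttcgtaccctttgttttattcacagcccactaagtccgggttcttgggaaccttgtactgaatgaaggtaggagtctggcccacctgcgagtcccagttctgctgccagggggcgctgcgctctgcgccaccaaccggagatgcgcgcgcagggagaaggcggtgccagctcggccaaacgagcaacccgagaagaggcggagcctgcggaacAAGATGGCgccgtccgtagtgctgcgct
Cox6b2, chr7:4753045-4753344, - strand: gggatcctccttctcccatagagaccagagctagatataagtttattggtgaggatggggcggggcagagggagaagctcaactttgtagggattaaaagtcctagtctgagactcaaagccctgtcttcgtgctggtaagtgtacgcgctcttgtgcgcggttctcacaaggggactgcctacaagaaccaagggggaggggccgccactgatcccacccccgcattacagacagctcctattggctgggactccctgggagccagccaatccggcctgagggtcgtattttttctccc

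Split by these letters, the members had medians as follows. The median TAKI minus WT difference was -0.06 both for the 17 members with NRF1-type letters and for the 50 without. For TEKI minus WT it was 0.10 and 0.07. Members with the YY1 letters had medians of -0.03 for TAKI minus WT and 0.09 for TEKI minus WT, against -0.06 and 0.08 for those without, and those with GABP/ETS letters had -0.04 and 0.08, against -0.06 and 0.07. These medians are descriptions of 10 to 57 genes each and carry no test.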

How the data were processed

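Liver RNA of 13 mice was measured on 1-colour Agilent arrays, of which 500 ng was labelled with Cy3, per the labels. The deposited scanner files give a background-subtracted, detrended intensity per spot on a linear scale, made with Agilent Feature Extraction 9.5, per the submitters' processing notes and the file headers. The deposited value table holds the same intensity values (largest difference 0), so it is not scaled between arrays.

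Control spots and outlier spots were left out, spots of a probe averaged, and log2 values set relative to each array's 75th percentile. These log2 levels were computed here from the deposited intensities. Per file gene name, the probe of highest mean was kept where it stood well above background on 3 or more arrays (20547 genes). They were fitted with limma 3.58.1 in R 4.3.3, 1 model over 13 arrays, genotype only, 10 residual degrees of freedom, Benjamini-Hochberg adjustment over all genes and a threshold of 0.05. Every array was kept. The model was tested on simulated data. Precision is limited by the number of arrays. Samples were grouped by the genotype label.

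The members, the lists around them and the tests were chosen with earlier results of these data known. Named members are those past the threshold, the 2 of smallest p per complex in each comparison with WT, the 1 of largest SD per complex, and the tissue isoforms with their partners. Each further list gives its gene of smallest p. Others named, such as the muscle and testis markers, were chosen after their values were seen. Alternatives were median, quantile and normexp (offset 50) processing, other probe filters and summaries, an intensity trend, array weights, the groups compared alone, removal of the shift by 8 row and 10 level bins, slide and replicate blocks, and leaving out each array. Slide 3 alone was chosen after seeing the data. Promoter windows come from RefSeq tables of GRCm38.p6.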

Additional observations from a re-analysis of the deposited data

Results flagged for a closer look

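In 68 checks of a group of 5 arrays, over the named members and the medians of the complexes, 2 values lay far from the rest of their group, and chance gives about 1 in 20 such checks. Cox6b2 was at -2.56 on TAKI replicate 1, against -1.97 to -1.76 on the other TAKI arrays, and without that array its TEKI minus TAKI difference was 0.75 (adjusted p = 0.00751). Atp5s was at 1.41 on WT replicate 5, against 1.55 to 1.59 on the other WT arrays, and that array is the WT array on the slide of the TEKI mice.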

How the results depend on the processing

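No member was called for TEKI minus WT under any of the 30 alternatives, and the limits are few arrays, slides that hold single genotypes and a shift by place on the array. For TAKI minus WT the count of 0 became 1 with normexp background (Cox8c), 1 with normexp and quantile normalization (Sdhc) and 3 with array weights (Sdhc, Ndufc1 and Cox8c). For TEKI minus TAKI the count of 1 became 0 with median scaling, 0 with only the groups compared, and 2 with normexp background (Cox6b2 and Cox8c). Cox8c passed the filter through 2 WT arrays and 1 TEKI array. It was well above background on 0 of 5 TAKI arrays, so its calls rest on TAKI values below that mark. The median member was -0.21, -0.35 and -0.15 with median scaling in TAKI and TEKI against WT and in TEKI against TAKI. For TEKI minus TAKI it was 0.0024 with normexp and quantile normalization, and for TEKI minus WT -0.14 with slide as a fixed block and -0.14 within slide 3 alone. Without 1 array at a time it ranged from -0.11 to 0.00, 0.03 to 0.13 and 0.09 to 0.19, and the members called stayed at 0, 0 and 1. Of 21 differences of named members, 20 moved by over 1.5 times or changed sign under at least 1 alternative, 10 of them when 1 array was left out, and Cox6b2 for TEKI minus TAKI did not. The causes of these moves were not tested.

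Single genes changed sign with median scaling: Sdha to -0.059 for TAKI minus WT, and for TEKI minus WT Atp5g2 to -0.30, Ndufa10 to -0.20, Ndufs8 to -0.00091, Sdha to -0.33, Sdhb to -0.16, Uqcrc1 to -0.25 and Uqcrq to -0.26. For TAKI minus WT, Atp5s was 0.0090 and Cox4i2 -0.040 with normexp background, Atp5s 0.022 and Uqcrh 0.0065 with normexp and quantile normalization, and Atp5s 0.072 as the mean of its probes. With slide as a fixed block, and equally within slide 3, Atp5g2 was -0.084, Sdhb -0.23, Uqcrc1 -0.19 and Uqcrq -0.049 for TEKI minus WT.

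Over all genes, the number called was 586 for TAKI minus WT, and 259 to 2331 under the alternatives that keep all arrays, 298 to 1327 without 1 array. For TEKI minus TAKI it was 711, and 299 to 4265, or 412 to 1116. For TEKI minus WT it was 1, and 0 to 6, or 1 to 92. With a replicate block, 0, 0 and 1 members were called, and the median member was -0.06 for TAKI minus WT, 0.11 for TEKI minus WT and 0.16 for TEKI minus TAKI, where Cox6b2 was 0.97 (adjusted p = 0.0326). The numbers do not pair the mice: same-numbered arrays correlated at -0.23 to 0.32 over 11 pairs, with 5 above 0.1. The correlation within slides, with genotype in the model, was 0.04. It cannot show a shift between the TAKI slides and the others, because no TAKI array shared a slide with another genotype. Signal limits Cox8c and Cox4i2, which were not above background on every array.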
